A study of Arabidopsis thaliana with 8 samples.

Results

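The mitochondrion-encoded protein genes of Arabidopsis thaliana were followed here in 5-day-old seedlings of the irx3-2 mutant and of the Col-0 wild type, each grown with and without lincomycin. A gene was included if its locus identifier starts with ATMG, the prefix of the mitochondrial genome, and the deposited tables class it as protein coding, which gave 122 genes of 36917 loci. Of these, 38 carry a gene name and 84 are open reading frames (ORFs) named only by their length in codons and a letter. The named genes comprise 14 gene pieces or genes for complex I, 1 for complex III, 3 for complex IV, 6 for complex V, 5 for cytochrome c maturation, 7 for ribosomal proteins and 2 others, MATR and MTTB.

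The 4 groups were irx3-2 on lincomycin, irx3-2 on Murashige and Skoog (MS) medium, wild type on lincomycin and wild type on MS medium, with 2 RNA-sequencing libraries each. irx3-2 carries a mutant allele of IRX3, a cellulose synthase that works in secondary walls, and no other allele is given for either genotype. Lincomycin, an inhibitor of plastid translation, was added at 50 µg/ml, and all plates stood in continuous light of 100 µmol photons per square metre and second on a medium with sucrose. Nothing in the sample labels tells if both libraries of a group are from separate plants or plates, so p-values measure the spread between these libraries, which may be technical. In whole seedlings, fewer cells of a type and less RNA per cell cannot be told apart.

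The plant mitochondrial genome encodes only a small part of the organelle's proteins. It holds core subunits of the NADH dehydrogenase (complex I, NAD genes), the cytochrome bc1 complex (COB), cytochrome c oxidase (complex IV, COX genes) and the ATP synthase (complex V, ATP genes), together with proteins that attach haem to cytochrome c (CCM genes) and some ribosomal proteins (RPS and RPL genes). Several NAD messages are assembled by trans-splicing from pieces transcribed at distant places, and these pieces have locus identifiers of their own. Mitochondrial DNA has also been copied into the nucleus, and in Arabidopsis a large copy lies on chromosome 2, so that a read from such a stretch fits both genomes.

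That copy bears on what each gene's count holds, and the following sequences from RefSeq's TAIR10.1 assembly show how close it is. The first 60 coding bases of COB lie at MT:182799-182858 on the minus strand and again at 2:3450863-3450922 on the plus strand. Those of ATP1 lie at MT:68562-68621 on the minus strand and at 2:3362505-3362564 on the plus strand. All 8 lines are given 5′ to 3′, and capitals mark a base that differs between the 2 places.
COB, mitochondrion: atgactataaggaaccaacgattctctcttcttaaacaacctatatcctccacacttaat
COB, chromosome 2: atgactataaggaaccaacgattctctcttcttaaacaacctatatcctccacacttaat
ATP1, mitochondrion: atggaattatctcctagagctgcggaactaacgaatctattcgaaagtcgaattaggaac
ATP1, chromosome 2: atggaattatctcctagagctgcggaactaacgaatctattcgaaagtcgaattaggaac
CCMFN1, mitochondrion: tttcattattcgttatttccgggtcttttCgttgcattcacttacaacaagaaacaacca
CCMFN1, chromosome 2: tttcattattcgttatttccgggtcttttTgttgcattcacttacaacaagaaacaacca
COX1, mitochondrion: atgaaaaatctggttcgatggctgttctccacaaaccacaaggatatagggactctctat
NAD9, mitochondrion: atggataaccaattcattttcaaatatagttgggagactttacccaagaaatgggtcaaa
The COB and ATP1 lines are the same in both genomes, and their whole coding sequences of 1182 and 1524 bases have 1 exact copy on chromosome 2. CCMFN1, shown at MT:316037-316096 and 2:3297914-3297973 on the plus strand of both, differs from its copy at this 1 base. COX1 at MT:116286-116345 on the minus strand and NAD9 at MT:24665-24724 on the plus strand have no exact copy of their coding sequence on chromosome 2, and none of their 50-base windows occurs anywhere else in the assembly.

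The counts of the named genes differed with this sharing. Of the 37 named genes long enough for a 50-base window, 24 had at least 90% of their windows somewhere else in the assembly. Of these, 9 averaged under 100 normalized counts over the 8 libraries, while 6 averaged over 1000, up to NAD7 at 5500. All 6 genes with 10% to under 90% shared windows averaged over 1000. All 7 genes with under 10% shared windows averaged over 1000 normalized counts, from CCMB at 1082 to COX1 at 30526. A normalized count is a read count divided by the library's size factor, and it is not corrected for gene length. Per kilobase of coding sequence, and leaving out the pieces of trans-spliced messages, NAD4L had the highest mean level at 24437 normalized counts. COX1 followed at 19271, NAD9 at 17535 and COX2 at 16521, and the order of these 3 differed between groups. On the same scale, COB had 5.31 normalized counts per kilobase and ATP1 had 44.9, although both encode core subunits of their complexes.

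**Figure D1:**
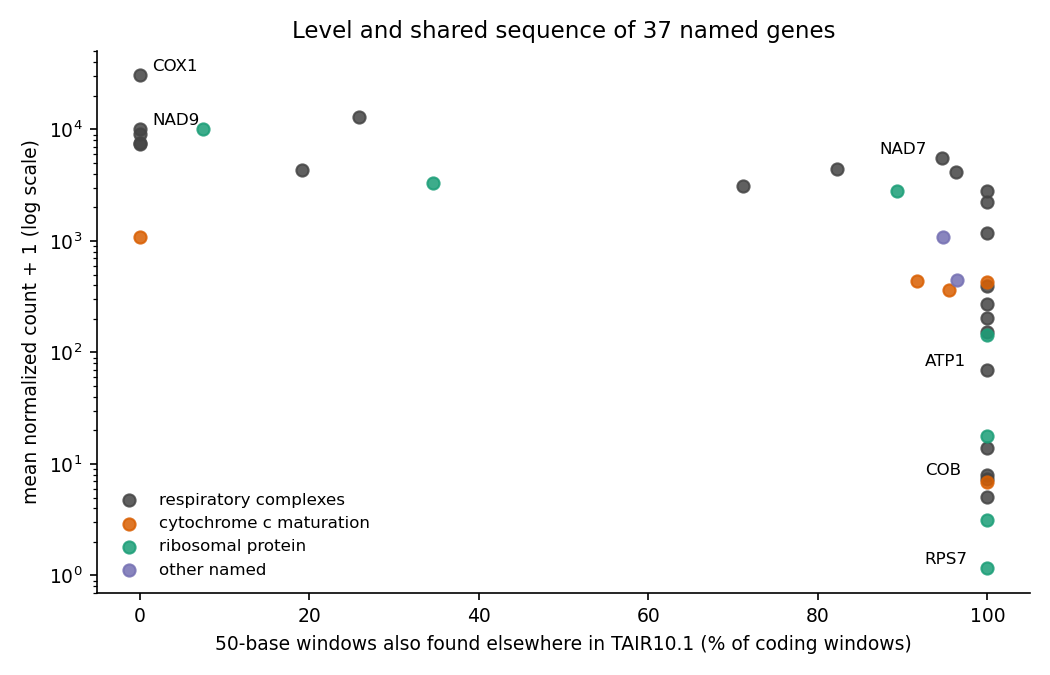
Mean normalized count + 1 over 8 libraries (log scale) against the percentage of 50-base coding windows also found elsewhere in TAIR10.1, 1 point per named gene, coloured by class. The 7 genes at the left edge all average over 1000, and the genes under 100, among them COB and ATP1, all lie at the right edge.

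The deposited descriptions name 46 chromosome 2 loci after 45 of the mitochondrial genes, 17 of them named genes and 28 ORFs, and 26 of those loci had a higher mean than the mitochondrial gene. COB averaged 6.27 normalized counts and its chromosome 2 counterpart AT2G07727 averaged 4005. ATP1 averaged 68.4 and AT2G07698 averaged 11746, and COX3 averaged 201 against 1940 for AT2G07687. The order turned round for NAD2B, a piece of the NAD2 message, which averaged 2780 against 7.90 for AT2G07689 although all of its windows are shared. Whether the reads of these chromosome 2 loci came from nuclear or from mitochondrial transcripts was not tested, and how the submitters counted reads that fit several places is not given in the sources used here. A level or change of a gene with a copy is therefore that of the reads assigned to the mitochondrial locus.

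The 8 libraries held 15032240 to 19488440 assigned reads. Mitochondrion-encoded protein genes took 1.36% ± 0.0463 of them in irx3-2 on lincomycin, 0.466% ± 0.0376 in irx3-2 on MS, 1.51% ± 0.0182 in wild type on lincomycin and 0.558% ± 0.00938 in wild type on MS (SD, n = 2 each). Plastid genes took 19.7%, 56.6%, 20.0001% and 54.6% of reads in those groups, and the lower plastid share on lincomycin goes with the higher share of everything else. Among reads outside plastid and ribosomal RNA genes, the mitochondrial share was 1.71% and 1.08% in irx3-2 on lincomycin and on MS, and 1.89% and 1.27% in wild type on lincomycin and on MS. Both shares were higher in every lincomycin library than in every MS library. RBCS1A and LHCB1.3, listed as leaf markers, fell on lincomycin, with a median log2 change of -4.05 in irx3-2 and -3.70 in wild type. Less leaf tissue and less RNA of these 2 genes per cell cannot be told apart here. Of 4 root markers, 2 fell in irx3-2 and 3 in wild type, where 18.0% and 17.2% of all loci tested fell. Their median log2 changes were -1.39 and -2.13. The part of the leaf and root markers in the results below was not tested.

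After the deposited scaling, which uses 1 size factor per library, the mitochondrial genes summed to 157530 and 142660 normalized counts in irx3-2 on lincomycin against 132251 and 116961 in irx3-2 on MS. In wild type they summed to 155544 and 155022 on lincomycin, against 135100 and 151730 on MS. The lincomycin libraries lay above the MS libraries in both genotypes. The sums for respiratory complex genes averaged 109143 ± 5824 in irx3-2 on lincomycin, 97561 ± 7081 in irx3-2 on MS, 117550 ± 550 in wild type on lincomycin and 103204 ± 8119 in wild type on MS (SD, n = 2 each). Cytochrome c maturation genes summed to 2705 ± 249 and 1656 ± 212 in irx3-2 on lincomycin and on MS, and to 2855 ± 64.0 and 2029 ± 168 in wild type on lincomycin and on MS. Ribosomal protein genes summed to 18639 ± 3248 and 11775 ± 2847 in irx3-2, and to 19450 ± 156 and 15560 ± 2341 in wild type, lincomycin first in each pair. The mean sums were higher on lincomycin in all 3 classes and both genotypes.

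The sums of unnamed ORFs ran differently in the 2 genotypes. Gene by gene, the log2 change on lincomycin was positive for 42 of the 44 ORFs tested below in irx3-2 and for 38 in wild type. The ORF sum was 17783 ± 1275 in irx3-2 on lincomycin against 12345 ± 522 in irx3-2 on MS. In wild type it was 13782 ± 422 on lincomycin against 21215 ± 883 on MS. Without ORF107A and ORF110A, chosen after their values were seen, the sums were 17247 and 10845 in irx3-2 and 13309 and 12452 in wild type, again on lincomycin and then on MS. The lower ORF sum of wild type on lincomycin thus came with these ORFs, described further on.

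**Figure D2:**
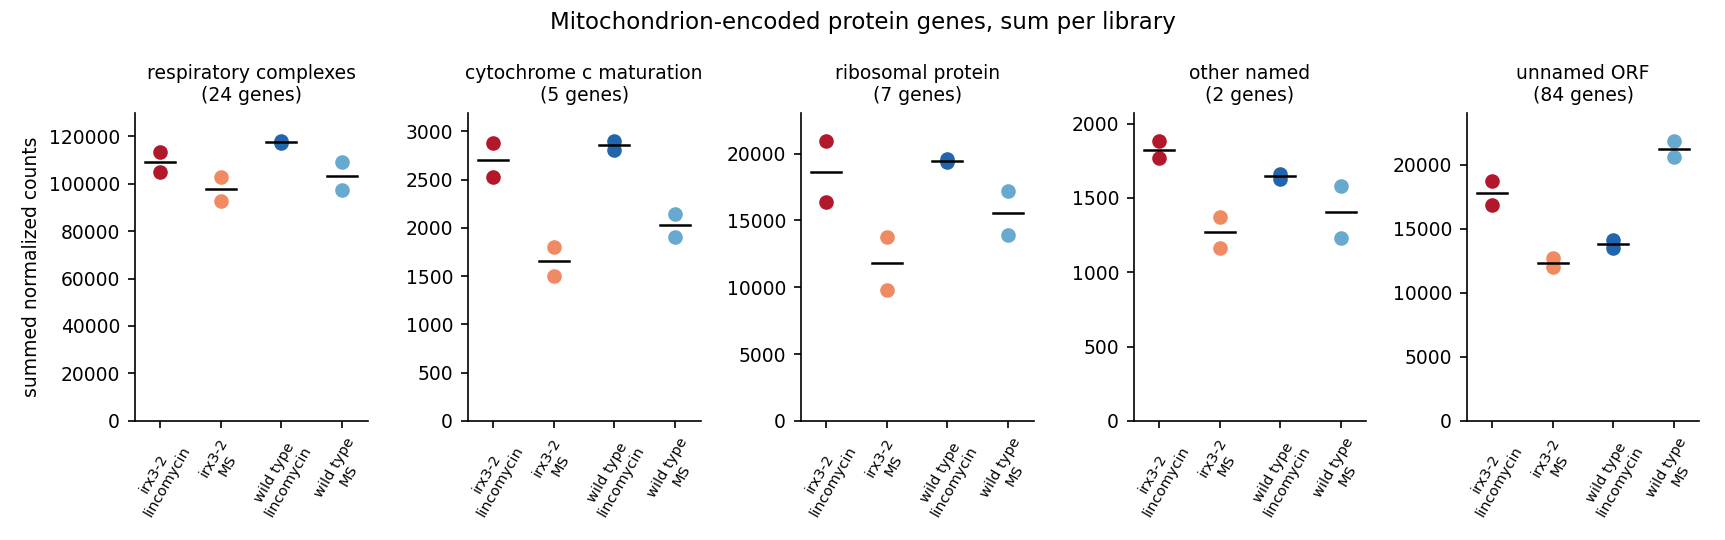
Summed normalized counts per library for the 5 classes of mitochondrion-encoded genes, with 1 point per library and a bar at the mean of each group of 2 (axes start at 0 and differ between panels). Cytochrome c maturation genes lie between 2529 and 2881 in irx3-2 on lincomycin and between 1506 and 1807 in irx3-2 on MS, while unnamed ORFs are highest in wild type on MS.

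Single genes were tested with limma on log2(normalized count + 1), fitted over the 20251 loci that reached 10 normalized counts in 2 libraries or more, with Benjamini-Hochberg adjustment over all of them and a threshold of 0.05. Fold changes on this scale understate the change of genes with low counts. Of the 122 genes, 77 entered the test: 22 of 24 respiratory complex genes, 4 of 5 cytochrome c maturation genes, 5 of 7 ribosomal protein genes, both other named genes and 44 of 84 ORFs. COB, ATP6-1, CCMC, RPL5 and RPS7 did not, and each of them has an exact copy of its coding sequence on chromosome 2. Of the 45 genes left out, 17 are ORFs with no read in any library. Of the 77, 6 entered through lincomycin libraries alone and 1 through MS libraries alone, and for those the direction is tied to the filter.

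Lincomycin against MS was compared first in irx3-2. Of the 77 genes tested, 41 rose and 1 fell, where 15.8% of all loci tested rose and 18.0% fell (33.8% in either direction). The median log2 change was 0.78 over the tested genes and 0.04 over all loci. In wild type, 18 of the 77 rose and 3 fell, beside 12.0% and 17.2% of all loci (29.2% in either direction), with medians of 0.42 and 0.02. The groups did not overlap, with lincomycin higher, for 63 genes in irx3-2 (34.6% of all loci) and 52 in wild type (33.7%). That more genes passed the threshold in irx3-2 is not a test of a difference between genotypes, which is given below.

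These counts depended on the scaling and on single libraries. Scaling to the nuclear protein-coding total moved the median of all loci to 0.46 in irx3-2 and 0.48 in wild type. Then 69 genes rose and 1 fell in irx3-2 and 53 rose and 2 fell in wild type. Loci in general moved up with that scaling, and the share of all loci that then rose is not given here. These counts are therefore not a result about the mitochondrial genes alone. Without irx3-2 lincomycin replicate 2, 18 rose and 1 fell in irx3-2, and without wild type lincomycin replicate 1 or 3 or wild type MS replicate 2, 8, 9 and 13 genes were called in wild type.

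**Figure D3:**
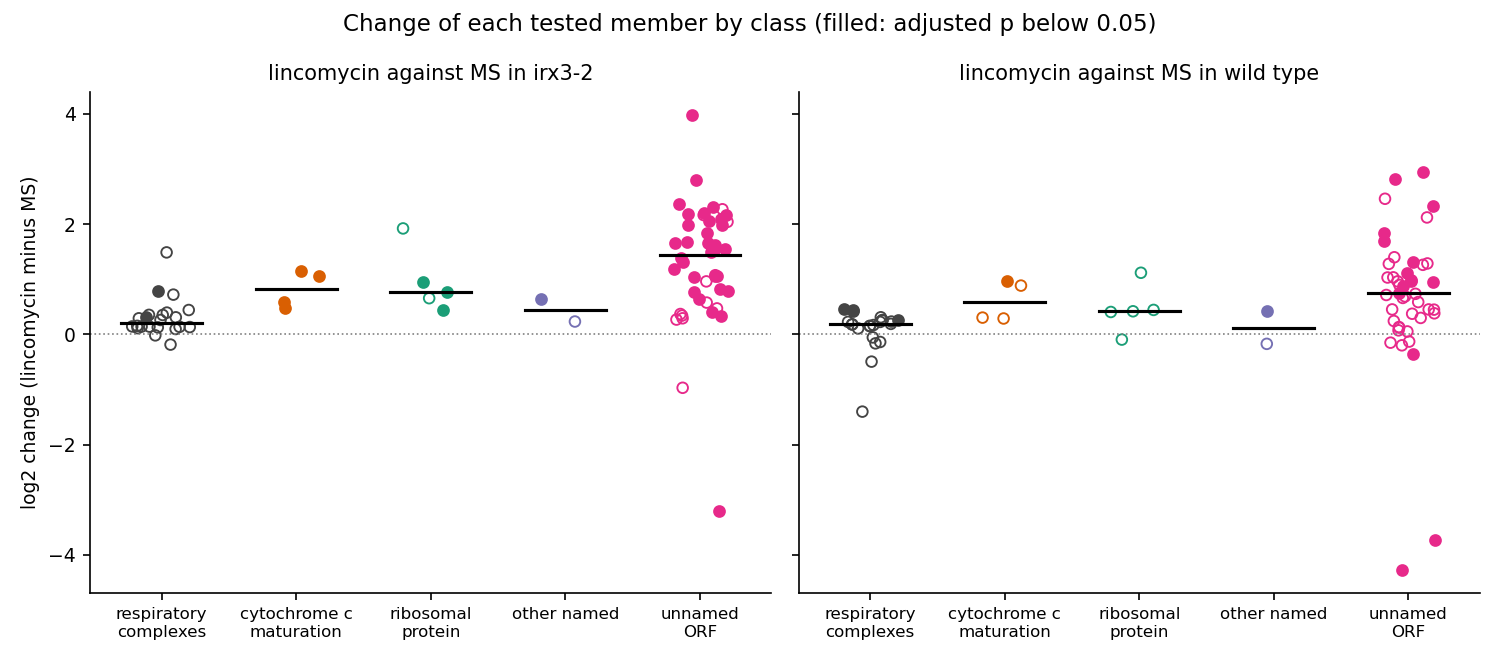
Log2 change, lincomycin minus MS, of each of the 77 tested genes by class, in irx3-2 (left) and wild type (right). Filled points passed an adjusted p of 0.05 in limma and bars mark class medians, which are 0.21 for respiratory complexes and 1.44 for unnamed ORFs in irx3-2, and 0.19 and 0.74 in wild type.

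Respiratory complex genes changed little on lincomycin after the deposited scaling. In irx3-2, 2 of 22 rose and none fell, with a median log2 change of 0.21, and in wild type 4 rose and none fell, with a median of 0.19. The shares that rose were thus 9.09% in irx3-2, below the 15.8% of all loci there, and 18.2% in wild type, beside 12.0% of all loci there. All 6 calls were of complex I genes, and no gene of complexes IV or V passed in limma in either genotype, with 1 complex V gene in irx3-2 and none in wild type at an unadjusted p below 0.05. Scaling to the mitochondrial protein total, of which respiratory genes made up 72.0% to 78.3% in the group means, holds the class near 0 by construction, and gave medians of -0.06 in irx3-2 and 0.07 in wild type. With nuclear protein-coding total scaling, which moved loci in general up, 19 of 22 rose in irx3-2 (median 0.63) and 17 in wild type (median 0.65). The size of the change of this class thus depends on the scaling.

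NAD5B, at MT:360107-360128 on the plus strand, is the short middle piece of the trans-spliced NAD5 message, and its RefSeq exon is given because its 22 bases are shorter than a usual read.
NAD5B, mitochondrion: gatatgatgattggtttaggta
NAD5B had 605 and 527 normalized counts in irx3-2 on lincomycin, 293 and 365 in irx3-2 on MS, 491 and 460 in wild type on lincomycin and 363 and 327 in wild type on MS. Every lincomycin library lay above every MS library. Its log2 change was 0.79 ± 0.14 in irx3-2 (SE, limma, adjusted p = 0.00187) and 0.46 ± 0.14 in wild type (adjusted p = 0.0350). The other pieces of the same message changed less, with NAD5A at 0.14 in irx3-2, which did not pass, and 0.27 in wild type (limma, adjusted p = 0.0459), and NAD5C at 0.15 and 0.18, which did not pass.

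NAD9, a peripheral-arm subunit of complex I with no copy elsewhere, had 10604 and 9758 normalized counts in irx3-2 on lincomycin, 8638 and 7676 in irx3-2 on MS, 12628 and 12398 in wild type on lincomycin and 8731 and 9947 in wild type on MS. The media did not overlap in either genotype. It rose by a log2 change of 0.32 ± 0.11 in irx3-2 (limma, adjusted p = 0.0410) and 0.43 ± 0.11 in wild type (adjusted p = 0.0129). NAD4, a membrane-arm subunit, had 2466 and 2249 in wild type on lincomycin against 1569 and 1935 in wild type on MS. It rose by 0.43 ± 0.12 there (limma, adjusted p = 0.0217), and its values in irx3-2 were 2656 and 2616 on lincomycin against 2333 and 1987 on MS, a change of 0.29 that did not pass.

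The NAD5B call in irx3-2 held when any 1 library was left out, with adjusted p up to 0.0336. In wild type, the calls of NAD5B, NAD4 and NAD9 were each lost without wild type lincomycin replicate 1 or 3 and without wild type MS replicate 2, with adjusted p up to 0.197, and that of NAD5B also without wild type MS replicate 3 or either irx3-2 lincomycin library. The NAD9 call in irx3-2 was lost without either lincomycin library of either genotype and without irx3-2 MS replicate 2, with adjusted p up to 0.237.

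COX1, the catalytic subunit of cytochrome c oxidase and the mitochondrial gene with the most reads, had 33498 and 32130 normalized counts in irx3-2 on lincomycin, 29237 and 30621 in irx3-2 on MS, 32100 and 30349 in wild type on lincomycin and 28167 and 28107 in wild type on MS. The lincomycin libraries were higher in each genotype, by a log2 change of 0.13 in irx3-2 and 0.15 in wild type, and neither passed the test. COX2, which holds the copper site that receives electrons from cytochrome c, changed by 0.14 in irx3-2 and 0.23 in wild type without passing. ATP4, a stator subunit of the ATP synthase with no copy elsewhere, had 6677 and 5651 in irx3-2 on lincomycin against 8621 and 4486 in irx3-2 on MS, and 8398 and 8443 in wild type on lincomycin against 7288 and 10501 in wild type on MS. Its MS libraries spread so widely that they enclosed the lincomycin libraries in both genotypes, with log2 changes of -0.02 and -0.06.

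The cytochrome c maturation genes, whose products carry haem to apocytochrome c, rose together in irx3-2. All 4 tested passed there in limma, beside 15.8% of all loci higher, with a median log2 change of 0.83. The count was 3 of 4 with edgeR and 2 of 5 with DESeq2. It was 1 of 4 with scaling to the mitochondrial protein total, and 2 of 4 with only the 2 groups fitted. The shares of all loci under these alternatives are not given here. In wild type 1 of the 4 passed, beside 12.0% of all loci higher, and the median was 0.59. CCMFN1, part of the haem lyase, had 527 and 455 normalized counts in irx3-2 on lincomycin, 321 and 172 in irx3-2 on MS, 493 and 430 in wild type on lincomycin and 201 and 275 in wild type on MS. The lincomycin libraries were the 4 highest. Its log2 change was 1.06 ± 0.26 in irx3-2 (limma, adjusted p = 0.00941) and 0.97 ± 0.26 in wild type (limma, adjusted p = 0.0169).

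CCMFN2, a second part of the haem lyase, had 512 and 433 in irx3-2 on lincomycin against 339 and 131 in irx3-2 on MS, and 674 and 633 in wild type on lincomycin against 242 and 515 in wild type on MS. It rose in irx3-2 by 1.16 ± 0.40 (limma, adjusted p = 0.0467), and the MS libraries differed more from each other than the lincomycin libraries did. CCMB, a haem transporter subunit with no copy elsewhere, had 1365 and 1232 in irx3-2 on lincomycin against 800 and 922 in irx3-2 on MS. It rose in irx3-2 by 0.59 ± 0.11 (limma, adjusted p = 0.00222), the lowest adjusted p of the 4, and CCMFC rose there by 0.48 (limma, adjusted p = 0.0229). In wild type CCMB had 1205 and 1189 on lincomycin against 1023 and 918 on MS, a change of 0.30 that did not pass. The CCMFN1 call in irx3-2 was lost without irx3-2 lincomycin replicate 2 and that in wild type without wild type lincomycin replicate 1 or 3 or MS replicate 2. Leaving out any 1 of the 4 lincomycin libraries or irx3-2 MS replicate 2 ended the CCMFN2 call, with adjusted p up to 0.308.

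Of the 5 ribosomal protein genes tested, 3 rose on lincomycin in irx3-2, beside 15.8% of all loci, with a class median of 0.76. None passed in wild type, where 12.0% of all loci rose and the class median was 0.42. In wild type none had an unadjusted p below 0.05 in limma either, and edgeR and DESeq2 also gave 0. RPS3, a small-subunit protein, had 13043 and 9950 normalized counts in irx3-2 on lincomycin, 8504 and 5299 in irx3-2 on MS, 12395 and 12379 in wild type on lincomycin and 8262 and 10571 in wild type on MS. The media did not overlap in either genotype. Its log2 change was 0.76 ± 0.21 in irx3-2 (limma, adjusted p = 0.0161), and 0.41 in wild type, which did not pass.

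RPS12, of the decoding region of the small subunit, had 181 and 184 in irx3-2 on lincomycin against 102 and 86.7 in irx3-2 on MS, and 158 and 176 in wild type on lincomycin against 141 and 106 in wild type on MS. It rose in irx3-2 by 0.95 ± 0.21 (limma, adjusted p = 0.00480), and that call held when any 1 library was left out. RPL2, of the large subunit, had 3404 and 3406 in irx3-2 on lincomycin against 2352 and 2674 in irx3-2 on MS, and 2710 and 2514 in wild type on lincomycin against 2771 and 2802 in wild type on MS. It rose in irx3-2 by 0.44 ± 0.10 (limma, adjusted p = 0.00505), while in wild type its lincomycin libraries were the lower ones, by -0.09, which did not pass. The RPS3 call was lost without irx3-2 lincomycin replicate 2 or irx3-2 MS replicate 2, with adjusted p up to 0.157.

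MATR encodes a maturase that acts in the splicing of mitochondrial group II introns. It had 1333 and 1389 normalized counts in irx3-2 on lincomycin, 917 and 823 in irx3-2 on MS, 1227 and 1196 in wild type on lincomycin and 807 and 1020 in wild type on MS, with no overlap between media. It rose by a log2 change of 0.65 ± 0.12 in irx3-2 (limma, adjusted p = 0.00230) and 0.42 ± 0.12 in wild type (limma, adjusted p = 0.0275), and the wild type call was lost without either lincomycin library of either genotype or wild type MS replicate 2. With scaling to the mitochondrial protein total, which takes that total as constant, the calls of NAD5B, NAD9, CCMFN2, CCMB and RPL2 in irx3-2 and of NAD5B, NAD4, NAD9 and MATR in wild type were lost, while those of CCMFN1, RPS12, RPS3 and MATR in irx3-2 were kept. MTTB, related to a bacterial protein export component, had 434 and 494 in irx3-2 on lincomycin, 456 and 340 in irx3-2 on MS, 434 and 434 in wild type on lincomycin and 424 and 563 in wild type on MS. The media overlapped in both genotypes and it did not pass in either.

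The unnamed ORFs made most of the calls. Of the 44 tested, 31 rose and 1 fell on lincomycin in irx3-2, beside 15.8% and 18.0% of all loci, with a median log2 change of 1.44. In wild type 12 rose and 3 fell, beside 12.0% and 17.2% of all loci, with a median of 0.74. Most were low: 67 of the 84 ORFs averaged under 100 normalized counts, and of the 27 tested among these, 19 rose in irx3-2 with a median of 1.84 and 7 in wild type with a median of 0.98. At that level, 10.6% of all loci rose in irx3-2 and 7.78% in wild type, with medians of 0.01 and 0. Among the 44 ORFs, 5 entered the test through lincomycin libraries alone. They are kept in the counts and medians of the 44, although their direction is tied to the filter. Those of them that average under 100 also enter the counts and medians of the 27, and values without them are not given here. At a mean of 100 normalized counts or more, 12 of 17 ORFs rose and 1 fell in irx3-2 (median 0.78), and 5 rose and 3 fell in wild type (median 0.13).

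**Figure D4:**
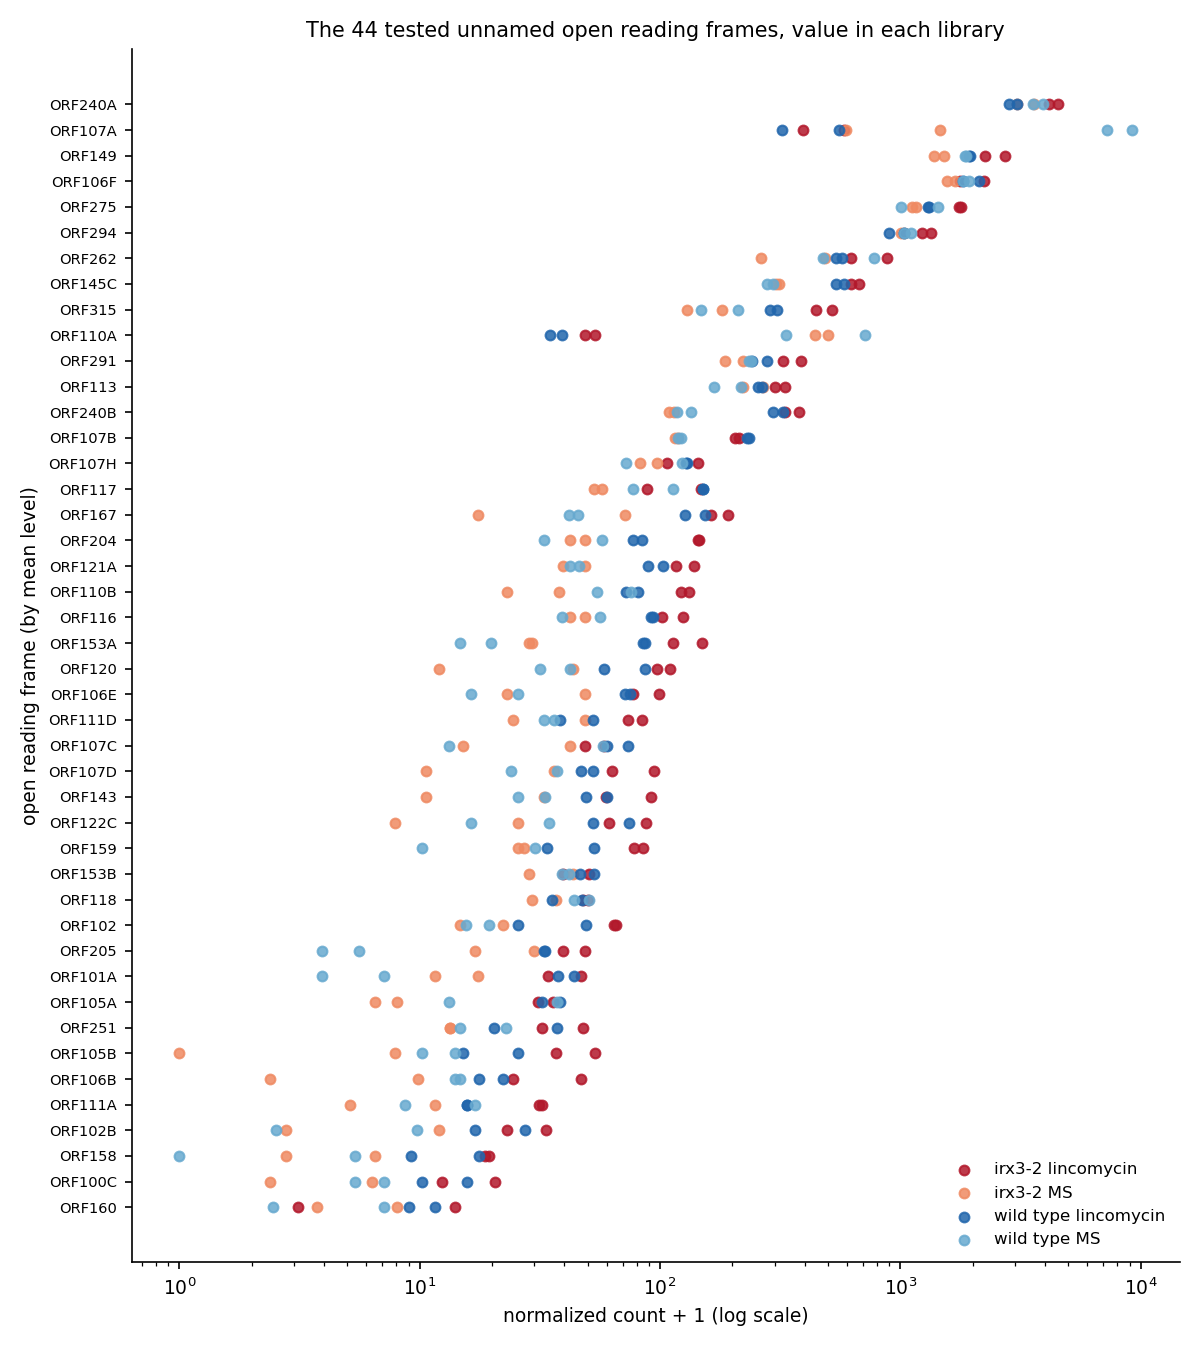
Normalized count + 1 in each library (log scale) for the 44 unnamed ORFs tested, ordered by mean level, with irx3-2 and wild type libraries on lincomycin in dark and on MS in light colours. Most rows have the dark points to the right, while ORF107A has both wild type MS libraries at 7254 and 9225 and ORF110A has all 4 MS libraries at 333 or more.

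By mean level per kilobase, with the length taken from the codon number in the name, the 5 highest ORFs were ORF107A at 7865, ORF106F at 5831, ORF240A at 4971, ORF149 at 4309 and ORF275 at 1643 normalized counts per kilobase. The place of ORF107A rests on wild type on MS, and in the other 3 groups its mean count was below that of ORF106F, which is of nearly the same length. ORF149 had 2727 and 2262 normalized counts in irx3-2 on lincomycin, 1522 and 1382 in irx3-2 on MS, 1949 and 1930 in wild type on lincomycin and 1872 and 1867 in wild type on MS. It separated the media by 0.78 on the log2 scale in irx3-2 (limma, adjusted p = 0.000287) and by 0.05 in wild type, which did not pass. ORF275 likewise had 1796 and 1756 in irx3-2 on lincomycin against 1168 and 1115 in irx3-2 on MS (0.64, limma, adjusted p = 0.00628), and 1303 and 1311 in wild type on lincomycin between 1436 and 1002 in wild type on MS. ORF106F did not pass in either genotype.

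ORF240A had 4545 and 4179 normalized counts in irx3-2 on lincomycin, 3049 and 3591 in irx3-2 on MS, 2827 and 3051 in wild type on lincomycin and 3945 and 3569 in wild type on MS. It was higher on lincomycin in irx3-2, by a log2 change of 0.40 ± 0.11 (limma, adjusted p = 0.0169), and lower on lincomycin in wild type, by -0.35 ± 0.11 (limma, adjusted p = 0.0330). The difference between these effects did not pass its own test (limma, adjusted p = 0.0640).

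Among low ORFs, the largest rises in wild type were those of ORF101A, ORF205 and ORF153A. ORF153A had 148 and 112 normalized counts in irx3-2 on lincomycin, 27.5 and 28.3 in irx3-2 on MS, 85.9 and 84.2 in wild type on lincomycin and 13.8 and 18.9 in wild type on MS. All lincomycin libraries lay above all MS libraries, and it rose by 2.17 ± 0.31 in irx3-2 (limma, adjusted p = 0.000354) and 2.33 ± 0.31 in wild type (limma, adjusted p = 0.000243). ORF101A had 36.5 and 43.0 in wild type on lincomycin against 6.13 and 2.91 in wild type on MS, and rose by 2.94 ± 0.51 (limma, adjusted p = 0.00139). ORF205 had 32.4 and 32.0 against 4.60 and 2.91 in those groups, and rose by 2.83 ± 0.48 (limma, adjusted p = 0.00130). The MS values of ORF101A and ORF205 in wild type rest on 2 to 4 reads a library and lie below the level of the filter. Whether either ORF entered the test through lincomycin libraries alone is not given here. For an ORF that did, the direction of the rise is tied to the filter, and its adjusted p cannot show that direction.

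In irx3-2, the largest rises were of ORF105B, ORF106B, ORF122C and ORF167. ORF105B had 74 and 55 reads in irx3-2 on lincomycin against 5 and 0 in irx3-2 on MS, and its log2 change of 3.98 ± 0.86 (limma, adjusted p = 0.00472) depends on the added count of 1. ORF106B had 33 and 70 reads against 1 and 5 in those groups, a change of 2.80 ± 0.70 (limma, adjusted p = 0.0104). ORF122C had 60.3 and 86.9 normalized counts in irx3-2 on lincomycin against 6.88 and 24.8 in irx3-2 on MS, and rose by 2.36 ± 0.57 (limma, adjusted p = 0.00887). ORF167 had 163 and 191 against 16.5 and 70.8 in those groups, and rose by 2.32 ± 0.50 (limma, adjusted p = 0.00496). All 4 had separate media in irx3-2, with MS libraries that differed several-fold from each other. The irx3-2 MS values of ORF105B and ORF106B lay below the level of the filter. Whether these ORFs or ORF122C entered the test through lincomycin libraries alone is not given here. For an ORF that did, the direction of the rise is tied to the filter, and its adjusted p cannot show that direction. The call of ORF105B was lost without irx3-2 lincomycin replicate 2 (adjusted p = 0.0556), and those of ORF106B and ORF122C without replicate 3 (adjusted p = 0.101 and 0.0788).

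ORF107A and ORF110A ran the other way. ORF107A had 580 and 391 normalized counts in irx3-2 on lincomycin, 1465 and 595 in irx3-2 on MS, 321 and 554 in wild type on lincomycin and 7254 and 9225 in wild type on MS. The wild type MS libraries stood far above the other 6. ORF107A fell on lincomycin in wild type by 4.28 ± 0.37 on the log2 scale (limma, adjusted p = 9.58e-06), and its change of -0.97 in irx3-2 did not pass (limma, adjusted p = 0.0672).

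The mitochondrial 26S ribosomal RNA gene RRN26, which is no protein gene, had 8943 and 8497 normalized counts in irx3-2 on lincomycin, 12103 and 13155 in irx3-2 on MS, 1629 and 2003 in wild type on lincomycin and 31053 and 31755 in wild type on MS. As for ORF107A, its group mean was highest in wild type on MS and lowest in wild type on lincomycin. Per 10000 RRN26 counts, ORF107A had 648 and 461 in irx3-2 on lincomycin, 1210 and 452 in irx3-2 on MS, 1969 and 2765 in wild type on lincomycin and 2336 and 2905 in wild type on MS. The ratio was higher in each wild type library than in each irx3-2 library. The share of reads in annotated ribosomal RNA genes differed between libraries, from 0.0712% in irx3-2 MS replicate 2 to 2.81% in wild type MS replicate 3. In wild type MS replicate 2 it was 0.173%. Whether this bears on RRN26 or on the ratio, and whether reads of ribosomal RNA entered the ORF107A count, was not tested.

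ORF110A is described in the deposited tables as part of a Rubisco large chain, a plastid protein whose gene RBCL has a partial copy in the mitochondrial genome. The stretch below lies within a 291-base gapless match to RBCL with 4 differences (98.6% identity), at MT:165024-165143, and is set beside the plastid bases at Pltd:55539-55658, both on the plus strand, to show how nearly a plastid read fits the mitochondrial genome. Capitals mark the differing bases, and no identifier ties this stretch to ORF110A.
mitochondrial stretch like RBCL: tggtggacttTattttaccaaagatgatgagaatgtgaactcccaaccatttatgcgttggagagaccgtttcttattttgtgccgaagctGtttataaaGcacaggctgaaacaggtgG
RBCL, plastid: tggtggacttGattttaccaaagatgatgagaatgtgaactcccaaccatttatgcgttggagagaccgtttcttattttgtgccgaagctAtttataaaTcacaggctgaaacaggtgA
ORF110A had 47.5 and 52.9 normalized counts in irx3-2 on lincomycin, 498 and 442 in irx3-2 on MS, 38.2 and 33.8 in wild type on lincomycin and 714 and 333 in wild type on MS. All MS libraries lay above all lincomycin libraries. Its log2 change was -3.20 ± 0.30 in irx3-2 (limma, adjusted p = 1.58e-05) and -3.73 ± 0.30 in wild type (limma, adjusted p = 5.35e-06), and both calls held when any 1 library was left out.

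RBCL itself had 57183 and 56733 normalized counts in irx3-2 on lincomycin, 4720087 and 4592430 in irx3-2 on MS, 56585 and 57276 in wild type on lincomycin and 3976330 and 4236627 in wild type on MS. Per 10000 RBCL counts, ORF110A had 8.32 and 9.33 in irx3-2 on lincomycin, 1.06 and 0.963 in irx3-2 on MS, 6.76 and 5.90 in wild type on lincomycin and 1.80 and 0.786 in wild type on MS. ORF110A and RBCL were thus both low on lincomycin, RBCL by the wider margin, and whether plastid reads entered the ORF110A count was not tested.

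**Figure D5:**
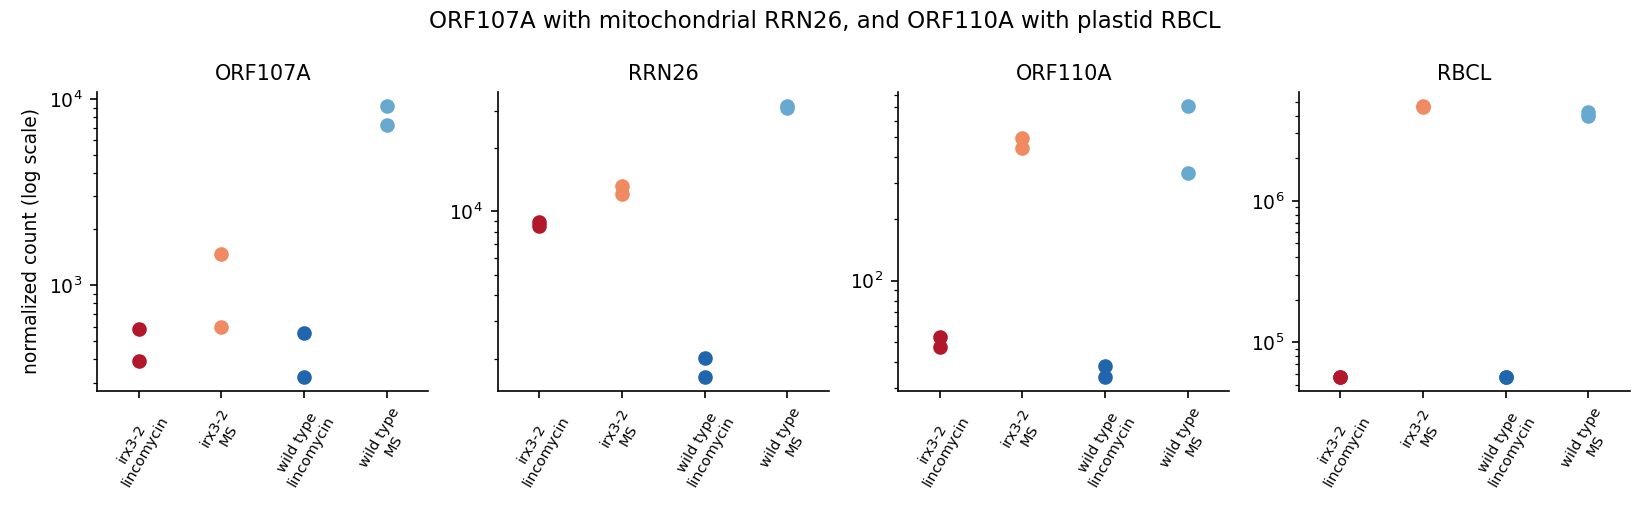
Normalized counts per library (log scale, axes differ) of ORF107A, mitochondrial RRN26, ORF110A and plastid RBCL, with 1 point per library. ORF107A and RRN26 are highest in wild type on MS, and ORF110A and RBCL are low in both groups on lincomycin.

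Between genotypes, few mitochondrial genes passed. On MS, none of the 77 was higher in irx3-2 and 1 was lower, beside 0.158% and 0.0593% of all loci (0.217% in either direction), and the median log2 difference was -0.19. At an unadjusted p below 0.05, limma had 4 genes higher and 13 lower, and edgeR and DESeq2 gave 0 higher and 1 lower after adjustment. The shares of all loci by these other counts are not given here, so they are no result about the mitochondrial genes alone. The groups did not overlap with irx3-2 lower for 22 genes, where 18.4% of all loci did so, and with irx3-2 higher for 8, where 19.1% did. The 1 call was ORF107A, at -3.13 ± 0.37 (limma, adjusted p = 0.00938), which was lost without wild type MS replicate 3 (adjusted p = 0.0741). Without irx3-2 MS replicate 1, 8 genes were lower and none higher.

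On lincomycin, 2 of the 77 were higher in irx3-2 than in wild type and none lower, beside 3.35% and 2.33% of all loci (5.68% in either direction), with a median of 0.19. At an unadjusted p below 0.05, limma had 9 higher and 3 lower, and edgeR and DESeq2 each gave 4 higher and 0 lower after adjustment. With only the 2 lincomycin groups fitted, 10 were higher and 5 lower, the 5 being 4 respiratory genes and 1 for cytochrome c maturation. The shares of all loci at the unadjusted p and in these other fits are not given here. Those counts are therefore no result about the mitochondrial genes alone. The groups did not overlap with irx3-2 higher for 38 genes (30.4% of all loci) and with irx3-2 lower for 15 (27.2%). RPL2 was higher by 0.38 ± 0.10 (limma, adjusted p = 0.0440) and ORF240A by 0.57 ± 0.11 (limma, adjusted p = 0.0147), from the values given above. Both calls were lost without any 1 of the 4 lincomycin libraries, and that of RPL2 also without either wild type MS library.

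The lincomycin effect in irx3-2 differed from that in wild type for 1 of the 77 genes, ORF107A, beside 0.657% of all loci. Its change on lincomycin was -0.97 in irx3-2 and -4.28 in wild type, a difference of 3.31 ± 0.53 on the log2 scale (limma, adjusted p = 0.0216), and the call was lost without any 1 of the wild type libraries or of the irx3-2 lincomycin libraries, with adjusted p up to 0.167. The median difference between the lincomycin effects was 0.58 over the 44 ORFs, -0.01 over the 22 respiratory genes and 0.03 over all loci.

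Adding the reads of the matching chromosome 2 locus to each mitochondrial gene, an alternative chosen after the values were seen, brought 89 of the 122 genes into the test. Then 54 rose and 1 fell on lincomycin in irx3-2, and 26 rose and 4 fell in wild type. In the main fit, 15.8% of all loci rose in irx3-2 and 12.0% in wild type, and the shares in this alternative are not given here. COB, which alone was too low to test, rose with AT2G07727 included by 0.34 in irx3-2 (limma, adjusted p = 0.0208) and 0.36 in wild type (limma, adjusted p = 0.0164).

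The nuclear genes that work with the mitochondrial ones were read from the same fit. Of 47 nuclear genes for subunits of the same complexes, complex II and cytochrome c, and for cytochrome c maturation, 23 rose and none fell on lincomycin in irx3-2 (median 0.40, beside 15.8% of all loci higher). In wild type 7 rose and 1 fell (median 0.16), which is near the 12.0% of all loci higher. On lincomycin 18 of the 47 were higher in irx3-2 than in wild type and none lower (median 0.44, beside 3.35% of all loci higher), among them 8 of 9 subunits of complex V, and on MS none passed. Complex II, all of whose subunits are nuclear here, had the highest median of the 6 lists in irx3-2, at 0.64. SDH1-1, its flavoprotein, had 3760 and 3379 normalized counts in irx3-2 on lincomycin, 1586 and 1455 in irx3-2 on MS, 2337 and 2222 in wild type on lincomycin and 1609 and 1654 in wild type on MS. It rose by a log2 change of 1.23 ± 0.10 in irx3-2 (limma, adjusted p = 4.11e-06) and 0.48 ± 0.10 in wild type (limma, adjusted p = 0.00366), with the irx3-2 lincomycin libraries the highest.

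Of 12 nuclear genes for mitochondrial transcription and RNA processing, 7 rose in irx3-2 and 5 in wild type and none fell, with medians of 0.85 and 0.50. Of all loci, 15.8% rose and 18.0% fell in irx3-2, and 12.0% rose and 17.2% fell in wild type, with medians of 0.04 and 0.02. AT5G14580, an organellar polynucleotide phosphorylase, had 365 and 342 in irx3-2 on lincomycin, 182 and 163 in irx3-2 on MS, 276 and 294 in wild type on lincomycin and 146 and 150 in wild type on MS. It rose by 1.03 in irx3-2 (limma, adjusted p = 0.000357) and 0.94 in wild type (limma, adjusted p = 0.000766). NMAT1, a nuclear-encoded maturase, rose in irx3-2 by 1.44 (limma, adjusted p = 0.00221). Of 8 genes for organelle DNA maintenance, 4 rose and 1 fell in irx3-2 and 3 rose and 1 fell in wild type, beside the same shares of all loci. They were led by the Twinkle helicase homologue, which is sent to both organelles, at 2.15 (limma, adjusted p = 6.58e-05) in irx3-2 and 1.42 (limma, adjusted p = 0.00138) in wild type.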

How the data were processed

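Total RNA of 8 seedling libraries was sequenced with an Illumina TruSeq kit, per the labels. Reads were trimmed and checked (Trimmomatic, FastQC), mapped to TAIR10 (TopHat2 2.1.1), counted (featureCounts) and normalized (DESeq2); the submitters' processing notes list these tools without settings. Strandedness and the treatment of multi-mapping reads are not given in the sources used here. The authors deposited 4 tables of 36917 loci with the same 8 columns of normalized counts (a signal: reads over a library's size factor). The same deposited tables hold the authors' log2 fold changes, Wald score and adjusted p-values, per the file headers, and of these the adjusted p-values served as an alternative. Whole reads were recovered from the low values: 100% of values came out whole within 0.01, with library totals of 15032240 to 19488440 reads, and intervals or limits from such counts cover counting error only.

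The 20251 loci reaching 10 normalized counts in 2 libraries or more were tested with limma 3.58.1 (trended variance, R 4.3.3) on log2(normalized count + 1). The fit had 4 group means and 4 residual degrees of freedom. Adjustment was by Benjamini-Hochberg over all loci tested. edgeR 4.0.16 and DESeq2 1.42.0 on the recovered reads were alternatives, beside other scalings, pseudocounts of 0.5 and 5, no filter and leaving out each library. The scripts were tested on simulated data. Groups and replicate numbers come from the labels. Same-numbered libraries showed little shared deviation, and the main fit did not pair them. With 2 libraries a group this cannot exclude that the numbers mark a shared batch.

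The named genes were assigned to classes by their symbols. Full statistics are given per class and comparison for at most 3 named genes and 5 ORFs with the largest change past the threshold, and values for the others. Shared sequence was counted as exact 50-base windows of RefSeq's coding sequences in TAIR10.1. The genes, lists and named examples were chosen with earlier results of these data known. The ORFs were not matched to RefSeq by an identifier, and no position is given for them.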

Additional observations from a re-analysis of the deposited data

Results flagged for a closer look

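The lincomycin effect in irx3-2 differed from that in wild type, by a test of the difference itself, for 1 mitochondrion-encoded protein gene and for 3 other genes reported beside them. For ORF107A the log2 difference was 3.31 ± 0.53 (SE, limma, adjusted p = 0.0216), with 580 and 391 normalized counts in irx3-2 on lincomycin, 1465 and 595 in irx3-2 on MS, 321 and 554 in wild type on lincomycin and 7254 and 9225 in wild type on MS. For mitochondrial RRN26 it was 3.59 ± 0.16 (limma, adjusted p = 6.24e-06), with a fall on lincomycin in both genotypes that was smaller in irx3-2. For mitochondrial RRN18 it was 1.91 ± 0.31 (limma, adjusted p = 0.0225). RRN18 had 5857 and 6072 normalized counts in irx3-2 on lincomycin against 5069 and 5138 in irx3-2 on MS. In wild type it had 4997 and 4104 on lincomycin against 10784 and 19770 on MS, the wild type MS libraries differing from each other. The share of reads in annotated ribosomal RNA genes ranged from 0.0712% to 2.81% between libraries, and its part in the RRN26 and RRN18 values was not tested. For the nuclear succinate dehydrogenase gene SDH1-1 (AT5G66760) it was 0.75 ± 0.14 (limma, adjusted p = 0.0413), with a rise on lincomycin in both genotypes that was larger in irx3-2.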

How the results depend on the processing

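For mitochondrion-encoded genes called in either direction, the 42 of lincomycin against MS in irx3-2 became 70 with nuclear protein-coding total scaling, and 19 to 44 when 1 library was left out. The 21 in wild type became 55 with nuclear total scaling and 12 with no filter, and 8 to 30 with 1 library left out. The 1 gene lower in irx3-2 on MS became 0 with no filter or with only the 2 groups fitted, and 0 to 8 with 1 library left out. The 2 genes higher in irx3-2 on lincomycin became 1 with TMM scaling, nuclear total scaling or no filter, 0 with mitochondrial total scaling, 4 with edgeR or DESeq2, 15 with only the 2 groups fitted (10 higher and 5 lower), 5 by the authors' deposited table of adjusted p-values, and 0 to 5 with 1 library left out. The 1 difference between lincomycin effects became 0 with no filter, 5 with DESeq2, 2 with the chromosome 2 reads added, and 0 to 4 with 1 library left out. The shares of all loci called under these alternatives are not given here, and the cause was not tested.

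Groups compared share 1 replicate number at most, and same-numbered libraries correlated between -0.137 and 0.126 in their deviations. The deviations of the 2 libraries of a group mirror each other, so these values cannot tell if the numbers mark a shared batch. With the replicate block, 32 genes were called in irx3-2, 15 in wild type, 1 in the MS and 0 in the lincomycin comparison of genotypes, and 0 had effects that differed. Of reads outside plastid and ribosomal RNA genes, the mitochondrial share was 1.71% and 1.08% in irx3-2 on lincomycin and on MS, and 1.89% and 1.27% in wild type. For the 28 named results, 491 of 586 alternative values kept direction and call, 95 kept the direction but not the call, and 0 reversed. The nuclear partner genes were fitted with the deposited scaling alone. Depth limits the 49 genes under 10 normalized counts on average.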

Other observations

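Libraries of a group differed in the 77 genes tested by more than 1.5-fold for 7 genes in irx3-2 on lincomycin, 30 in irx3-2 on MS, 10 in wild type on lincomycin and 20 in wild type on MS. The MS libraries thus differed from each other in more of these genes than the lincomycin libraries did, in both genotypes. The same held over all loci tested and is not particular to these genes. There the SD of the log2 difference between the 2 libraries was 0.78 in irx3-2 and 0.70 in wild type on MS, against 0.49 and 0.42 on lincomycin. The seed storage gene CRA1 had 755 and 395 normalized counts in irx3-2 on lincomycin, 358 and 531 in irx3-2 on MS, 66.5 and 32.6 in wild type on lincomycin and 96.5 and 27.6 in wild type on MS, higher in each irx3-2 library than in each wild type library, and its relation to the mitochondrial genes was not tested.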
